A study of Drosophila melanogaster with 6 samples.

Results

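The chaperones Hsc70-3, Gp93, Cnx99A and Pdi and the oxidase Ero1L of the endoplasmic reticulum were measured in heads of wild type and tim-MJD fruit flies. They are the genes among Hsc70-3, Gp93, Calr, Cnx99A, Pdi, Ero1L and Xbp1 to which the platform annotation gives a probe set of their own. Of these 7 genes, 5 had such a probe set, and they make up 5 of the 10845 genes and 6 of the 13966 probe sets measured, since Hsc70-3 had 2. Calr, the lectin chaperone calreticulin, and Xbp1, a transcription factor of the unfolded protein response, had none and were not analysed here.

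Messenger RNA of whole heads was measured on 6 Affymetrix DrosGenome1 arrays, 3 per group. The wild type flies were of the strain CS for replicates 1 and 3, and the label of replicate 2 names no strain. The tim-MJD flies carried the Tim-gal4 driver, a GAL4 line under control of the timeless promoter (timeless is a clock gene), and a UAS-MJD transgene for the polyglutamine protein of Machado-Joseph disease. A polyglutamine length of 78 is stated for tim-MJD 1 and 2, and no length for tim-MJD 3. All flies were 2 to 4 days old and had 3 days of light-dark cycles before collection at Zeitgeber time 16. The timeless promoter is active in clock neurons, photoreceptors and some glia, so cells with and without the transgene were mixed in each sample. Neither driver-only nor transgene-only flies were analysed here, so effects of the driver, of the transgene and of the strain background cannot be told apart. In whole heads, fewer cells of a type and less RNA per cell cannot be told apart either. Whether replicates were separate collections of flies is not stated in the labels; if they were not, the p-values cover technical spread only.

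Proteins that enter the secretory pathway fold in the endoplasmic reticulum. Hsc70-3, the fly BiP, and Gp93, the fly GRP94, are the Hsp70 and Hsp90 chaperones of that compartment. Cnx99A, a calnexin, is a membrane lectin that holds newly made glycoproteins. Pdi forms and rearranges disulfide bonds, and Ero1L passes the electrons on from it. When unfolded protein builds up, the sensor Ire1 splices the Xbp1 messenger, and the spliced form raises the transcription of chaperone genes. The pathway belongs to the protein quality control studied in polyglutamine disease, although MJD protein itself is not made in this compartment.

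All 6 probe sets passed the filter on low signal, and 0 of the 5 genes passed an adjusted p of 0.05 in limma. Gp93, Pdi and the brighter Hsc70-3 probe set read higher in tim-MJD heads, without overlap between the groups. Cnx99A read lower with overlap, and Ero1L lay at the level of the negative controls. Over all 8379 probe sets tested, 2.48% passed an adjusted p of 0.05. At an unadjusted p under 0.05, 2 of the 5 genes passed, Pdi and Gp93, against 15.6% of all probe sets. The groups did not overlap for 3 of the 5 genes, all higher in tim-MJD, where 10.0% of all probe sets were separated in that direction. For Hsc70-3 this was nearly a tie, with tim-MJD 3 at 6.37 and wild type 2 at 6.35. On the other Hsc70-3 probe set the groups overlapped. The median change of the 5 genes was 0.88 log2 units, and that of all probe sets tested was close to zero, with 49.0% of them positive. The 0.88 is the change of the brighter Hsc70-3 probe set, which is the brighter over all 6 arrays only through its tim-MJD values. In wild type its mean of 6.34 was below the 6.56 of the other Hsc70-3 probe set, whose change was -0.83. This median therefore depends on a choice of probe set that used the tim-MJD values. Changes are differences of the group means of quantile normalized log2 (intensity + 16). The base behind the deposited values is not settled, and on the other reading of them, as powers of e of log2 summaries, a log2 change well above background shrinks to about 0.693 of its size.

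**Figure D1:**
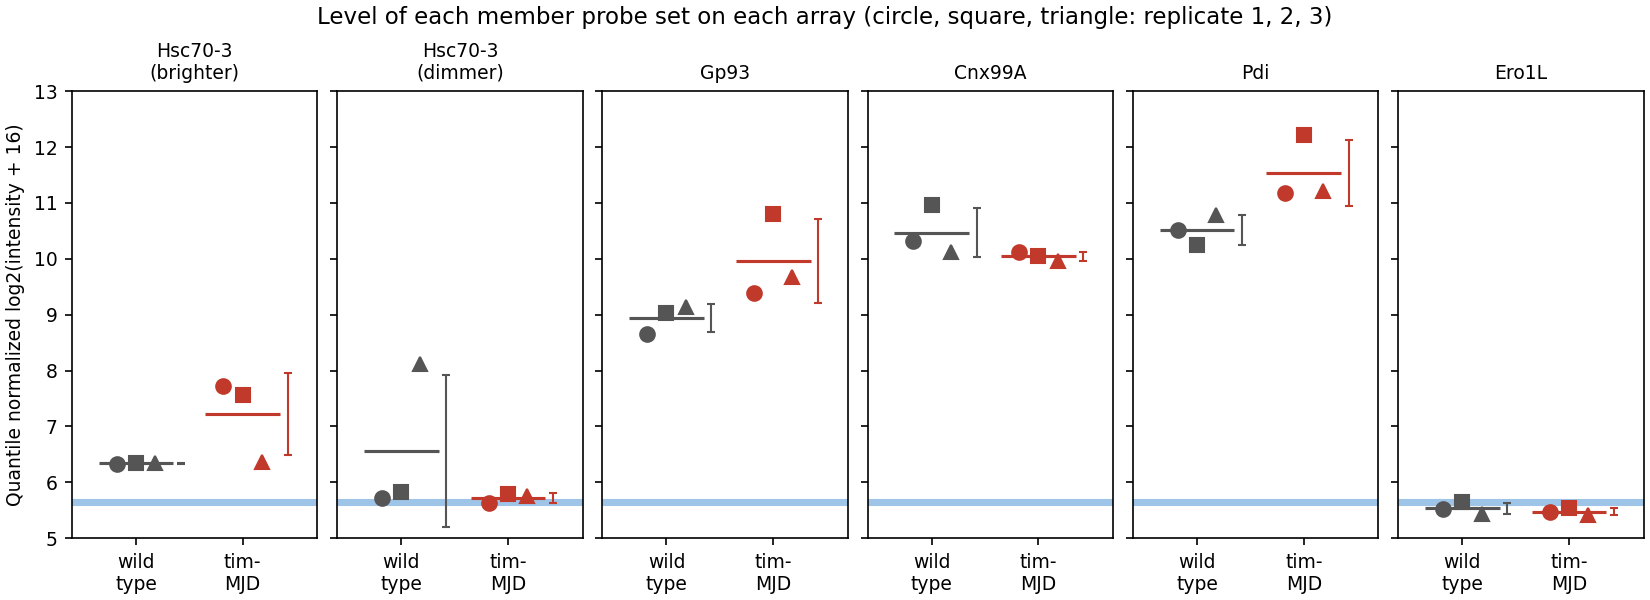
Normalized log2 level (vertical axis) of the 6 member probe sets on each array, with group means as lines and SD as error bars to the right of each group (n = 3). The blue band spans the highest negative control of each array; Gp93, Pdi and the brighter Hsc70-3 probe set have every tim-MJD array above every wild type array, and Ero1L lies in or below the band.

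Pdi, the disulfide isomerase, read 10.52, 10.25 and 10.79 on wild type 1, 2 and 3, and 11.18, 12.21 and 11.21 on tim-MJD 1, 2 and 3. Every tim-MJD array was above every wild type array, and tim-MJD 2 was the highest by a full log2 unit over the other tim-MJD arrays. The means were 10.52 ± 0.27 in wild type and 11.53 ± 0.59 in tim-MJD (SD, n = 3). The difference was 1.01 ± 0.32 (SE), or 2.02-fold, with a 95% interval from 0.20 to 1.83 (limma, adjusted p = 0.212). Of the 5 genes, Pdi had the lowest p, at an unadjusted 0.0236, and it ranked 931 of the 8379 probe sets. Without tim-MJD 2 the difference was 0.68 (adjusted p = 0.202).

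Gp93, the Hsp90 of the endoplasmic reticulum, read 8.65, 9.03 and 9.13 in wild type and 9.39, 10.80 and 9.68 in tim-MJD, in order of replicate number. The groups did not overlap, but tim-MJD 1 lay only a little above the highest wild type array, and tim-MJD 2 stood well above all others. The difference of the means was 1.02 ± 0.39 (SE), or 2.03-fold, with a 95% interval from 0.03 to 2.01 (limma, adjusted p = 0.309). Without tim-MJD 2 it was 0.60 (adjusted p = 0.287). Gp93 and Pdi both read highest on this array.

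Both Hsc70-3 probe sets were dim, and they disagreed. On the brighter one, Hsc70-3 read 6.33, 6.35 and 6.34 in wild type and 7.72, 7.57 and 6.37 in tim-MJD. The wild type arrays were nearly equal, tim-MJD 1 and 2 were higher by over a log2 unit, and tim-MJD 3 was within 0.03 of the wild type mean. In deposited intensity these were 65.1, 65.7 and 66.9 against 190, 175 and 67.7. The difference of the means was 0.88 ± 0.37 (SE), with a 95% interval from -0.05 to 1.81 (limma, adjusted p = 0.348). Without tim-MJD 3, the difference was 1.35 and passed the threshold (limma, adjusted p = 0.0102). That fit leaves out the tim-MJD array that lay at the wild type level. The label of tim-MJD 3 gives no polyglutamine length, and whether this has a part in its value was not tested. With any other array left out the difference did not pass, at adjusted p from 0.443 to 0.628.

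On the dimmer probe set, Hsc70-3 read 5.71, 5.84 and 8.13 in wild type and 5.63, 5.78 and 5.76 in tim-MJD. The value of wild type 3 stood alone, and the other 5 arrays lay just above the negative controls. The difference was -0.83 ± 0.68 (SE, adjusted p = 0.658), and -0.05 without wild type 3. With both probe sets averaged, Hsc70-3 differed by 0.02, and the median of the 5 genes became 0.02 in place of 0.88, since Hsc70-3 is the middle gene of the 5. The suffix f_at in the name of the brighter probe set marks probes that the array's designers matched to several members of a gene family, so transcripts of other Hsp70 genes can add to its signal. Hsc70-4, the abundant Hsp70 of the cytosol, read 13.80, 12.87 and 12.66 in wild type and 13.92, 14.55 and 13.42 in tim-MJD (difference 0.85 ± 0.42 SE, adjusted p = 0.425), with overlap between the groups. The difference between Hsc70-3 and Hsc70-4 within an array moved by 0.02 between groups (exact permutation test, two-sided, p = 1, smallest possible p = 0.1, n = 3 per group). It was -7.47, -6.52 and -6.32 in wild type and -6.20, -6.98 and -7.05 in tim-MJD, so the spread within each group was far larger than 0.02. The small shift of the mean therefore does not show that the 2 genes moved together. Whether Hsc70-4 adds to the Hsc70-3 signal was not tested. Gp93 could not be set beside Hsp83, its relative in the cytosol, which had no probe set of its own.

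Cnx99A, the calnexin, had a lower mean in tim-MJD, and its groups overlapped. It read 10.32, 10.96 and 10.12 in wild type and 10.13, 10.06 and 9.97 in tim-MJD. The tim-MJD arrays were close together, wild type 2 was the highest, and wild type 3 lay just below tim-MJD 1. The difference was -0.42 ± 0.23 (SE), with a 95% interval from -0.99 to 0.16 (limma, adjusted p = 0.484). Leaving out wild type 2 brought it to -0.17. That array also had the largest gap between the 3' and 5' control probe sets of eIF-4a, at 9.63 log2 units against 2.57 to 3.71 on the remaining arrays. With this gap as a covariate the Cnx99A difference was -0.11 ± 0.13 (SE, limma, adjusted p = 0.870). That covariate is set mostly by wild type 2, so its fit largely repeats leaving that array out. With the 18S ribosomal RNA signal as a covariate the Cnx99A difference was 0.03 (limma, adjusted p = 0.989).

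Ero1L, the oxidase that recharges Pdi, read 5.52, 5.64 and 5.43 in wild type and 5.47, 5.54 and 5.41 in tim-MJD. It exceeded the negative controls on 1 of the wild type arrays and on 0 of the tim-MJD arrays. No fold is given for it, because a difference at this level was not detectable.

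**Figure D2:**
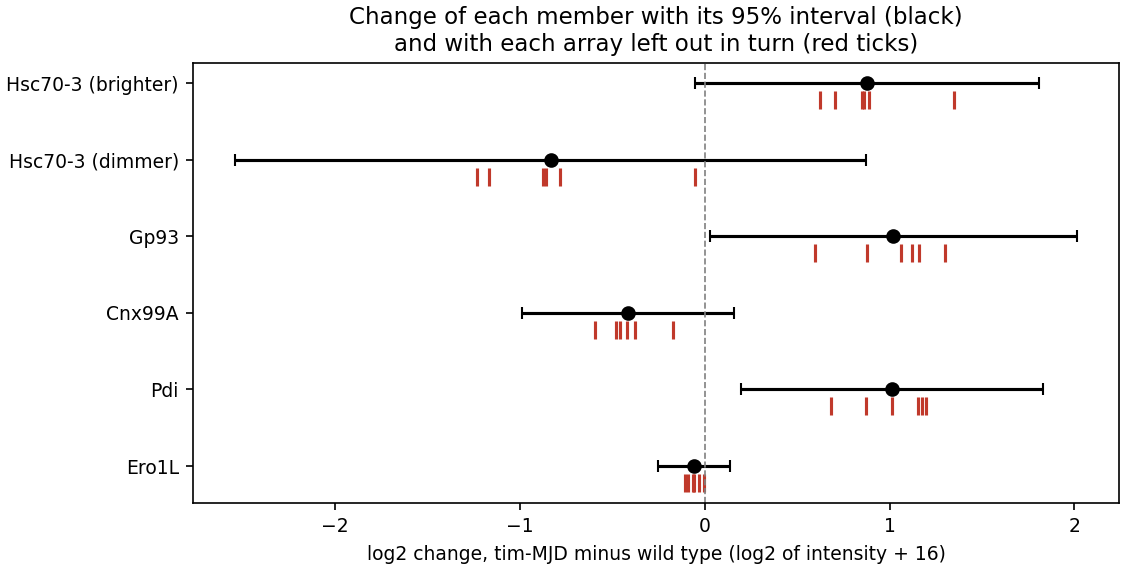
Log2 change from wild type to tim-MJD (horizontal axis) of each member probe set with its 95% interval from limma, and the same change with each of the 6 arrays left out in turn as red ticks. The intervals of Gp93 and Pdi lie above zero before adjustment, and for Hsc70-3 one tick stands apart on each probe set, at 1.35 without tim-MJD 3 and at -0.05 without wild type 3.

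Of 81 other genes of the endoplasmic reticulum listed, 63 were tested, and 1 passed the threshold. Sec31 rose, 0 fell and 62 did not pass, against 2.48% of all probe sets called. At an unadjusted p under 0.05, 11 of the 63 passed (17.5%), close to the 15.6% of all probe sets. Of the 63 genes, 48 were positive, and their median change was 0.19. That median was smaller by over 1.5 times in 4 alternatives, at 0.09 without tim-MJD 2, 0.08 with the values as deposited, 0.06 with median centring and 0.12 with a larger pseudocount. With the deposited values and with median centring, 40 and 39 of 62 genes were positive. The groups did not overlap for 13 genes higher and 1 lower in tim-MJD, where 10.0% and 11.9% of all probe sets were separated in these directions. The 1 lower gene was Sec16, which lay near the controls. It is named after its value was seen, as are ERp44, Grp170, TRAM, eca and the fat body and neuron markers below.

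Among 12 folding enzymes limma called 0, and 4 were below 0.05 before adjustment. The median change was 0.15, with 9 positive. ERp60, a disulfide isomerase related to Pdi, read 11.60, 11.41 and 10.95 in wild type and 12.38, 13.14 and 12.60 in tim-MJD. Its groups were well apart, and the difference of 1.39 ± 0.26 (SE) missed the threshold (adjusted p = 0.0673). With the lowest 60% of probe sets left out in place of 40%, ERp60 passed (adjusted p = 0.0364). CaBP1, another thioredoxin-like isomerase of this compartment, read 7.93, 7.88 and 7.72 in wild type and 8.58, 9.91 and 8.31 in tim-MJD (difference 1.09 ± 0.43 SE, adjusted p = 0.318). As with Pdi, the tim-MJD arrays were all above the wild type arrays and tim-MJD 2 was the highest. Without tim-MJD 2 the CaBP1 difference was 0.60 (adjusted p = 0.127). ERp44, a thiol-linked retention factor, and Grp170, which exchanges nucleotide on BiP, were the other 2 below 0.05, with differences of 0.78 ± 0.22 and 0.78 ± 0.25 (SE, adjusted p = 0.169 and 0.208). ERp44 passed without tim-MJD 1 (adjusted p = 0.0224).

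Of the sensors of the unfolded protein response, Ire1 and PEK lay near or below the negative controls, and Atf6 was above them on all 6 arrays. Ire1, which splices Xbp1, exceeded the negative controls on 1 wild type array and 0 tim-MJD arrays. PEK, the kinase that slows translation, lay below the filter and below the controls on all 6 arrays. Atf6, a membrane-bound transcription factor, read 7.17, 6.87 and 8.17 in wild type and 7.64, 7.73 and 8.04 in tim-MJD (difference 0.40 ± 0.36 SE, adjusted p = 0.687). Its groups overlapped. The fly ATF4, crc, which acts downstream of PEK, read 14.72, 14.63 and 15.02 in wild type and 15.16, 15.28 and 14.92 in tim-MJD (difference 0.33 ± 0.14 SE, adjusted p = 0.368), also with overlap. The pseudokinase gene trbl averaged 5.34 in wild type, at or below the controls throughout, and 6.35 in tim-MJD, above them throughout. It read 5.65, 6.90 and 6.51 in tim-MJD, and the control level on tim-MJD 1 was 5.62, just below its value. The limma difference was 1.01 ± 0.34 (SE, adjusted p = 0.230), and it passed without tim-MJD 1 (adjusted p = 0.0464). Counted from the control level, the tim-MJD mean was higher by at least 0.74 log2 units, or 1.67-fold. That bound allows for the dim wild type signal and not for the spread between arrays. Of the 7 genes tested in this group limma called 0, 1 had an unadjusted p below 0.05, and the median change was 0.22.

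In the degradation branch, which returns misfolded protein to the cytosol, limma called 0 of 10 genes, 0 had an unadjusted p below 0.05, and 5 were positive (median 0.03). Of 23 genes of translocation and N-glycosylation limma called 0, 3 had an unadjusted p below 0.05, and 19 were positive (median 0.24). Sec61alpha, the channel subunit, read 8.57, 7.53 and 8.13 in wild type and 8.88, 9.70 and 9.05 in tim-MJD, without overlap (difference 1.13 ± 0.34 SE, adjusted p = 0.188). The translocon gene l(1)G0320 differed by 0.86 ± 0.30 (adjusted p = 0.254), and TRAM, a membrane protein beside the channel, by 0.37 ± 0.11 (adjusted p = 0.176), both also without overlap.

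Of 11 genes of export and retrieval 1 rose, and 3 had an unadjusted p under 0.05 (median 0.08). Sec31, an outer coat protein of the vesicles that leave the endoplasmic reticulum, read 6.94, 7.03 and 6.86 in wild type and 7.51, 7.77 and 7.60 in tim-MJD. Both groups were tight and apart, and the rise was 0.68 ± 0.09 (SE, limma, adjusted p = 0.0276). The call held in 7 of 21 alternatives and was lost on leaving out any single array but tim-MJD 1 (the highest adjusted p being 0.0954, without wild type 1). KdelR, the receptor that returns chaperones with a retention signal, differed by 0.84 ± 0.32 (adjusted p = 0.300). The cargo receptor gene eca differed by 0.63 ± 0.16 (adjusted p = 0.120) on its brighter probe set and by -0.42 on the other. Among 4 tested relatives of the chaperones in the cytosol and mitochondria limma called 0, 0 had an unadjusted p below 0.05, and 1 was positive (median -0.05).

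**Figure D3:**
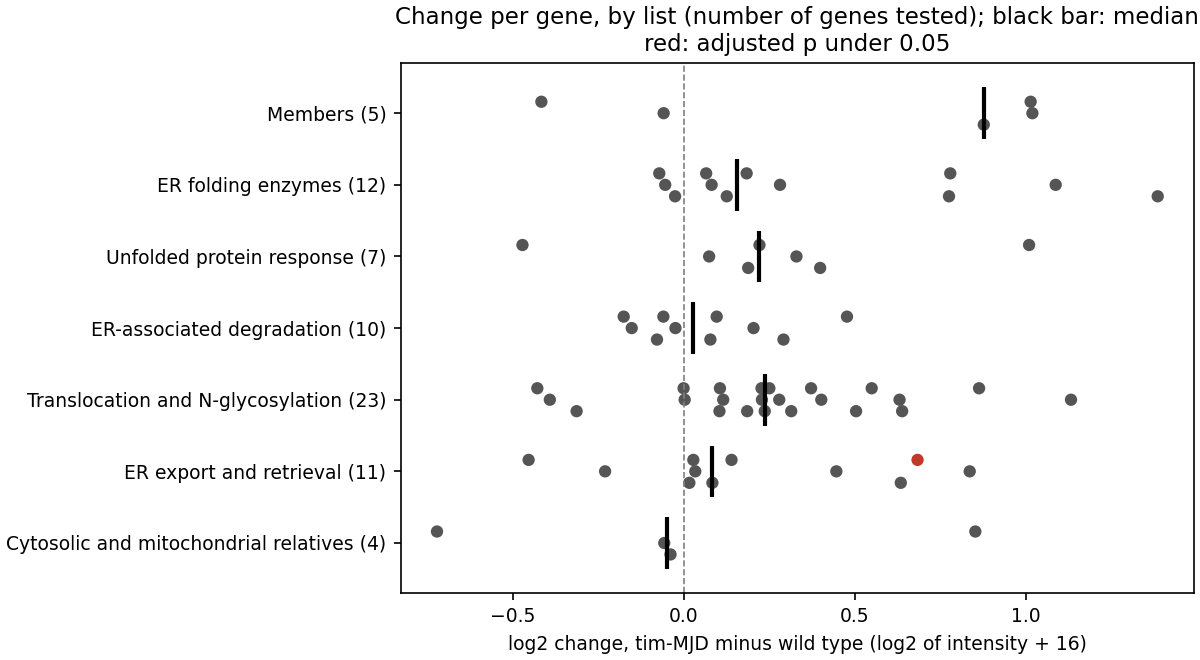
Log2 change from wild type to tim-MJD (horizontal axis) of each gene tested, by its brightest probe set, for the 5 members and 6 lists, with the median as a black bar. Sec31 is the one gene in red (adjusted p under 0.05), and the list medians lie between -0.05 and 0.24, against 0.88 for the members, which Hsc70-3 sets.

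The spread within the tim-MJD group was shared by many of these genes. Of the 63 other genes, 38 (60.3%) read highest on tim-MJD 2, as did Gp93 and Pdi, whereas 16.7% of all probe sets tested did. This count was made after the values were seen. Cnx99A and Ero1L read highest on wild type 2, and Hsc70-3 on tim-MJD 1. Without tim-MJD 2, 38 of 62 other genes were positive, against 48 of 63 with it.

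**Figure D4:**
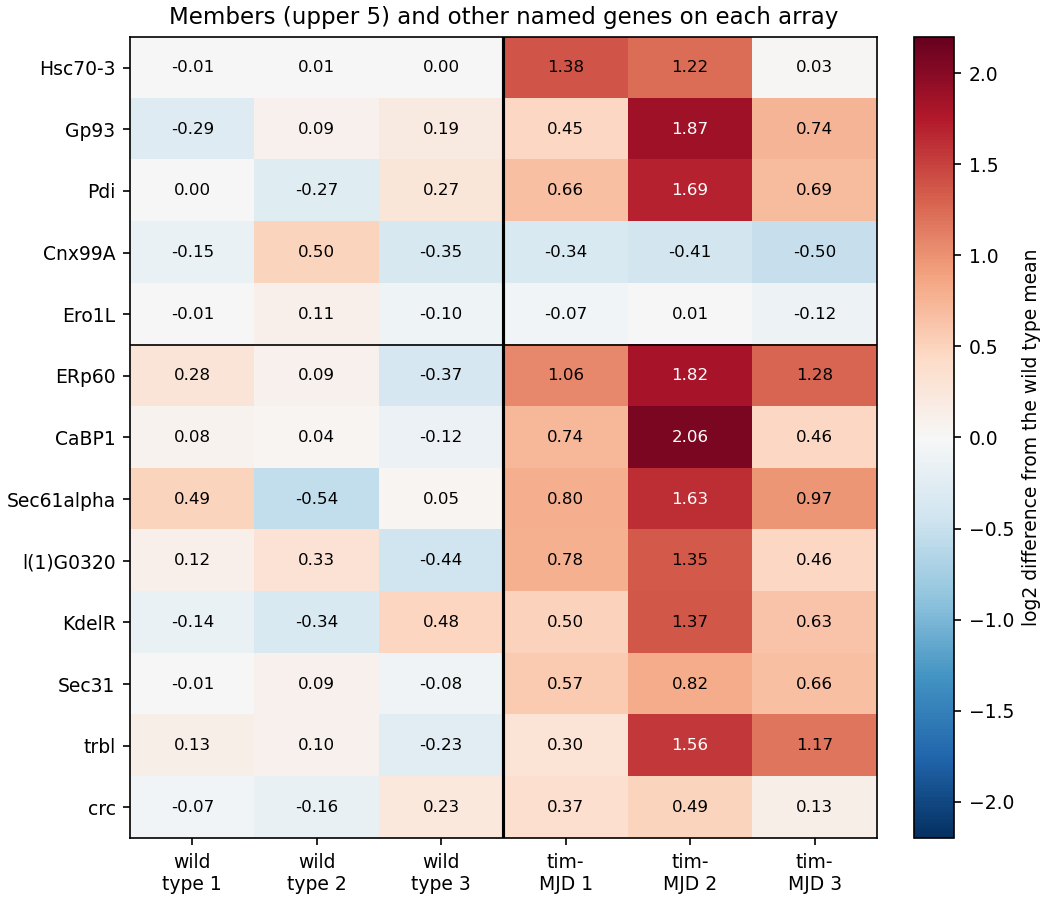
Normalized log2 level of each array minus the wild type mean of the same gene, for the 5 members and 8 other named genes (rows) on the 6 arrays (columns). Gp93, Pdi, ERp60, CaBP1 and Sec61alpha are highest in the tim-MJD 2 column, while Hsc70-3 reads 1.38 and 1.22 on tim-MJD 1 and 2 and 0.03 on tim-MJD 3.

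The arrays differed in other ways that run with the groups. The 8 tested fat body markers, which stand for a secretory tissue, averaged 15.32 to 16.24 on the wild type arrays and 14.57, 10.69 and 14.22 on tim-MJD 1, 2 and 3. Their summed intensity was 2.26e+06 to 5.45e+06 in wild type and 45400 to 2.19e+06 in tim-MJD, 1 of the 8 fell (Obp99b), and Fbp1 lay at or below the controls on all arrays. The array with the lowest average of these markers was thus the one on which Gp93, Pdi and 38 of the other genes read highest. The average leans on the yolk protein genes. On tim-MJD 1, 2 and 3, Yp1 read 20.10, 14.72 and 20.10, Yp2 18.36, 10.02 and 18.71, and Yp3 19.39, 13.15 and 19.39. Lsp2 and apolpp were also lowest on tim-MJD 2, at 9.56 and 11.30. The sex make-up of the samples is not given here, and its part in these values was not tested. The 6 tested neuron markers averaged 7.02 to 7.22 in wild type and 7.68 to 8.09 in tim-MJD, with summed intensities of 1030 to 1110 and 1360 to 2400. The limma test called 0 of these, 3 had an unadjusted p below 0.05 (nSyb, Appl and futsch), and 0 lay at control level on all arrays. The rise in the average came mainly from nSyb and Appl, with differences of 1.63 and 2.17, and futsch differed by 0.39. The markers elav, brp and fne differed by only 0.04, 0.07 and 0.01. Appl exceeded the controls on 0 wild type arrays. The part of these markers in the chaperone values was not tested. The 5 tested photoreceptor markers, which define the head sample, were above the controls on all 6 arrays, and limma called 0 of them (0 below 0.05 before adjustment). The 18S ribosomal RNA control read 12.70, 12.00 and 16.70 in wild type and 16.76, 16.86 and 17.43 in tim-MJD, so it was low on wild type 1 and 2 only. With this signal as a covariate limma called 37 probe sets in place of 208 and 0 members. Gp93 then differed by 0.87, Pdi by 0.74 and the brighter Hsc70-3 probe set by 1.01, and the dimmer one by -2.50 in place of -0.83 (adjusted p = 0.0668). The groups were scanned on different days, and scan day therefore cannot be told apart from genotype. Modules 1 and 2 of the fluidics station handled an array of either group. Within modules 1 and 2, Gp93 differed by 0.36 and 1.67 and Pdi by 0.93 and 1.43. The brighter Hsc70-3 probe set differed by 1.37 and 1.22, the dimmer one by -0.21 and -2.34, and Cnx99A by -0.84 and -0.06.

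The probe sets whose pattern over the 6 arrays was most like that of the brighter Hsc70-3 probe set were those of CG12268, Cyp6a2 and Iml1, among 7407 compared. Their Pearson correlations over n = 6 arrays were 0.999, 0.998 and 0.994, as a description. The arrays share group and scan day. CG12268 read 5.38, 5.40 and 5.39 in wild type and 7.02, 6.95 and 5.41 in tim-MJD. Cyp6a2, a cytochrome P450, read 5.06, 5.09 and 5.13 in wild type and 5.80, 5.72 and 5.11 in tim-MJD. Iml1 read 5.75, 5.65 and 5.69 in wild type and 6.88, 6.60 and 5.74 in tim-MJD. In each, tim-MJD 1 and 2 were higher and tim-MJD 3 lay at the wild type level, as for Hsc70-3. The 3 were picked for this likeness, so the shared pattern is not a separate result. The wild type values of CG12268 and Cyp6a2 did not exceed the controls, and none of the 3 passed the threshold (limma, adjusted p from 0.350 to 0.361). Counted from the control level, the least difference of the tim-MJD mean was 0.85 log2 units for CG12268 and -0.07 for Cyp6a2. A rise of Cyp6a2 was therefore not shown.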

How the data were processed

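The authors deposited 1 positive intensity for each probe set and array, read here as linear, although that scale is not settled; how they summarised, background-corrected or scaled the probes was not given in the sources used here. For 4 bacterial control probe sets, the slope of log2 value on log2 of the nominal kit concentration (1.5 to 100 pM) was 1.05 to 1.28, and 0.726 to 0.890 if the values are powers of e. The highest deposited value was about 2890000, above the 65535 that a single pixel of a 16-bit scan can hold. The deposited array description files, whose content is other than a measurement, gave module and scan day per the file headers.

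The 44 control probe sets were left out of normalization and tests. By the platform annotation 12443 probe sets named a single gene, 327 several and 1196 none, and 12394 of the first kind were found in a current gene table. No genome build or sequence was used. Values were transformed as log2(value + 16), quantile normalized, and stripped of the lowest 40% of probe sets by mean. Groups were compared with limma 3.58.1 in R 4.3.3 (lmFit, eBayes without trend, two-sided, Benjamini-Hochberg over 8379 probe sets, threshold 0.05) after a test on simulated data. Each gene is represented by the probe set with the highest mean. Control level is an array's maximum over 23 negative controls; where all arrays of a group lie at or below it, the difference is a bound against the higher of that level and the value itself. The precision is limited by 3 arrays per group. Median intensity per array was 26.2 to 31.5.

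The members, lists and tests were chosen with earlier results of these data known. Named genes are the members; Ire1, PEK, Atf6, crc and Hsc70-4 whatever their values; of each list the genes past the threshold, or where fewer than 2 passed the 2 largest changes without overlap of the groups; and 3 probe sets most like Hsc70-3. Same-numbered replicates deviated together with r = 0.29, 0.05 and 0.30 over probe sets, so the numbers were not taken to pair the arrays. Alternatives changed pseudocount, normalization, filter, eBayes options, weights, blocks, covariates and arrays left out. Figures were drawn with matplotlib 3.10.9.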

Additional observations from a re-analysis of the deposited data

How the results depend on the processing

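Over 21 alternative fits, 121 of 125 values of the member probe sets kept direction and side of the threshold. Fits that changed only the filter, variance trend, robust option or replicate block leave the difference itself the same, so direction could not change in them. As 0 members passed in the main fit, keeping the side of the threshold means that they still did not pass. The brighter Hsc70-3 probe set passed without tim-MJD 3, so that 1 member was called there and 0 in every other fit. Cnx99A changed sign with the 18S covariate (0.026), as did Ero1L with it (0.065) and with the 3' to 5' covariate (0.0064), and Atf6 with the 18S covariate (-0.48); the cause was not tested. With the mean of both Hsc70-3 probe sets the median of the members was 0.022; with 1 array left out it was 0.60 to 1.16. Probe sets called numbered 208, and 122 with median centring, 102 with no filter, 387 with the lowest 60% left out and 84 with the replicate block. They numbered 93 with the 3' to 5' covariate, 37 with the 18S covariate, and 88 to 200 with 1 array left out. With the fluidics module as a block 0 were called (980 at an unadjusted p under 0.05). In that fit wild type 1 and tim-MJD 3 were alone in their modules. So few residual degrees of freedom were left that its 0 calls do not show dependence on module. With the values as deposited, 46.1% of calls were higher in tim-MJD, against 62.0%. The replicate block made no member call. Of the other listed genes 0 were called with no filter, cyclic loess, median centring, deposited values, variance trend, replicate block, module block or either covariate, 2 with the lowest 60% left out, and 0 to 3 with 1 array left out (3 without tim-MJD 1: Sec31, trbl and ERp44). For dim probe sets such as those of Ero1L and Ire1, signal near the controls limits what can be detected.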

Other observations

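Lists of other cell types of the head were also read. Of 6 olfactory organ markers 2 fell (Obp19a and Obp56h, named after their values were seen) and 6 were negative (median -1.83). Their averages were 10.06 to 10.39 in wild type and 7.80 to 8.57 in tim-MJD. Orco, also named after its value was seen, was negative by only -0.03 ± 0.12 (SE, limma, adjusted p = 0.964), with overlap. The lower average is thus not shared by every marker of the list. Of 6 glial markers 0 passed in limma (2 had an unadjusted p below 0.05, median -0.31), of 8 hemocyte markers 0 passed (2, median -0.08), and of 4 muscle markers 0 passed (0, median 0.08).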
